A study of Mus musculus with 14 samples.

Results

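The interferon response and antigen presentation genes examined here are 44 genes, out of 41844 gene symbols in the expression tables of the fetal mouse brain. They were chosen by gene symbol, with no measured value in the rule but with earlier results of these data known. All 44 were found once in each table. By role they comprise 3 sensors of foreign nucleic acid, 4 transcription factors, 4 IFIT, 3 OAS and 6 GBP genes, the 2 genes Isg15 and Usp18 of the ISG15 system, 3 genes of the PARP and DTX3L group, 13 other effectors and 6 genes of antigen presentation by MHC class I. RNA was sequenced from whole brains of 14 male fetuses of the C57BL/6J background strain. At E13.5, where E stands for embryonic day, there were 4 Dio3+/+ and 2 Dio3-/- brains, and at E18.5 there were 3 Dio3+/+ and 5 Dio3-/- brains. Dio3-/- fetuses carry, in every cell, point mutations that inactivate type 3 deiodinase, the enzyme that clears thyroid hormones, and Dio3+/+ littermates were the controls of the study.

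Interferons are secreted proteins through which cells warn each other of viruses. Type I and type III interferons bind receptors that activate the kinases JAK1 and TYK2, and a complex that contains STAT2 and IRF9 then enters the nucleus and binds the interferon-stimulated response element (ISRE). Interferon gamma acts on its target genes through another element, the gamma-activated site (GAS). The genes that follow encode proteins that sense viral nucleic acid, block viral replication, or load peptides onto MHC class I molecules for display to T cells. In the brain, microglia, endothelial cells and other cells of the borders express many of them at low levels also without infection.

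The ISRE and GAS were looked for as the cores GAAANNGAA and TTCNNNGAA, on both strands, in the promoter windows of RefSeq (GRCm38.p6), which run from 250 bases before to 50 bases after an annotated start site. The letters of the 2 cores can overlap, as they do in Bst2. Windows were found for 35 of the 44 genes. The ISRE core was present for 20 of the 35 genes (57.1%) against 9.76% of the 27025 genes with a window, and 10 genes (28.6%) held 2 or more in 1 window against 0.736% of all genes. Ifit3 and its copy Ifit3b, both among the 10, held the same 3 cores, and the windows of Psmb9 and Tap1 share 275 bases, so these genes do not count independently. The GAS core was present for 10 of the 35 genes (28.6%) against 9.55% of all genes. Such a match is a run of letters and not a measured binding site.

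The following stretches lie before the RefSeq start sites of 6 genes, without the bases that GENCODE annotates as exon, 5′ to 3′ on the strand of the gene, with the cores in capitals. GENCODE places the start of Gbp5 earlier, at 142493978, so the Gbp5 stretch lies within the gene as GENCODE draws it. Ifit1 and Gbp5 are shown because their levels differed most between the ages, Ifit3 and Gbp7 as a second gene of each family, and Isg15 and Bst2 because they hold 3 and 2 ISRE cores beside ratios of 1.51 and 1.04.
Ifit1 (chr19:34640744-34640870, plus strand): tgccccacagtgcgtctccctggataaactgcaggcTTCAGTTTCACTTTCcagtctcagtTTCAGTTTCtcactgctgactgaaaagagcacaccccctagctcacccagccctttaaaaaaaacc
Ifit3 (chr19:34583279-34583528, plus strand): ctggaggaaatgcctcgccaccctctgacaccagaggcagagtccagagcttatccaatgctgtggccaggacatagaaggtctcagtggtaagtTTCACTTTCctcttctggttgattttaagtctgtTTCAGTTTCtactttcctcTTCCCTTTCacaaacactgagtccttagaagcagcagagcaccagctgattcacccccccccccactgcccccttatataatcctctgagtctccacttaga
Gbp5 (chr3:142496684-142496899, plus strand): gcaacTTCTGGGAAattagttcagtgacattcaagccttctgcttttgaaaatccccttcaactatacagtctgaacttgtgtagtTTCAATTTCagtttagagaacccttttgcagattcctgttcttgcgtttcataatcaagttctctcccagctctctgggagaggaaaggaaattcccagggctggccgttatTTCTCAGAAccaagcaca
Gbp7 (chr3:142530086-142530335, plus strand): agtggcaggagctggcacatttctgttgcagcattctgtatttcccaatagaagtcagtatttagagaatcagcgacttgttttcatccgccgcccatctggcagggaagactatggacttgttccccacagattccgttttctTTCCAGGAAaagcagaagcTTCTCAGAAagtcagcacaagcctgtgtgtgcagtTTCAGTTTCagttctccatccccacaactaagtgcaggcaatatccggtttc
Isg15 (chr4:156200819-156201068, minus strand): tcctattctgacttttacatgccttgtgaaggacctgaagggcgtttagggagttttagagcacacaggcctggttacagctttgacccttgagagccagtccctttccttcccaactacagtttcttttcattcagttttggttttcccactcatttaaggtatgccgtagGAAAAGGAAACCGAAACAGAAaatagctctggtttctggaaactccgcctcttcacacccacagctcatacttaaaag
Bst2 (chr8:71537473-71537722, minus strand): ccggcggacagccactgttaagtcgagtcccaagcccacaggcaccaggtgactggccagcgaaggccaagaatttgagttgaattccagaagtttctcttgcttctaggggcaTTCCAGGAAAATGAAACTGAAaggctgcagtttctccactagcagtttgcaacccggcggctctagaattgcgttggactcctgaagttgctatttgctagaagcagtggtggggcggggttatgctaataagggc

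In Ifit1 and Ifit3 the printed stretches each held 3 ISRE cores, read from the opposite strand (TTCNNTTTC), and neither held a GAS core. The windows of Ifit2, which are not printed, held no ISRE core and 1 GAS core. Both GBP genes held 1 ISRE core and 2 GAS cores. The 3 ISRE cores of Isg15 overlap and form 1 run. In Bst2, 2 overlapping ISRE cores also overlap a GAS core.

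**Figure D1:**
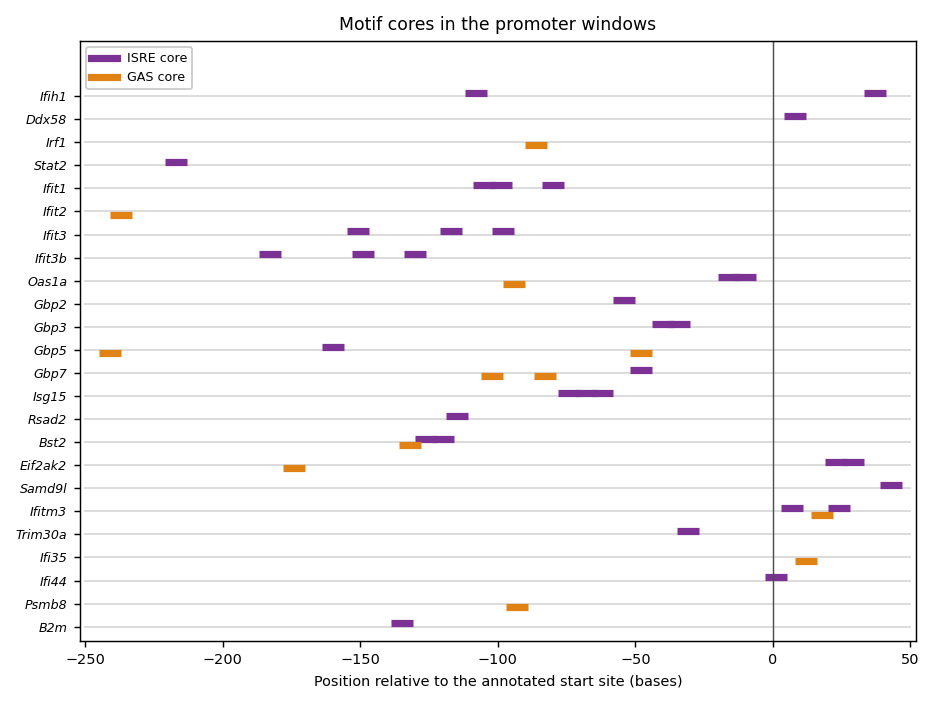
Positions of the ISRE core (purple) and the GAS core (orange) in the first promoter window of each of the 24 genes that held at least 1 core, in bases from the annotated start site (vertical line), which has 250 bases before it and 50 after it. The cores of the IFIT genes lie before the start site. Those of Ifih1, Ddx58, Eif2ak2, Samd9l, Ifitm3, Ifi35 and Ifi44 lie partly or wholly after it.

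What the tables allow to be compared is the level of each gene at the ages, because each holds 1 mean normalized count per gene over all libraries of its age with both genotypes pooled. Values of single brains were not analysed here, so no spread between brains, no difference between Dio3-/- and Dio3+/+ brains and no test is given. A read is visible in the low values of the tables, where it was worth 0.145 to 0.202 normalized counts in the 6 libraries at E13.5 and 0.107 to 0.132 in the 8 libraries at E18.5. The depth of the libraries thus differed by 1.39-fold and 1.23-fold within the ages, and 3 reads over all libraries make a mean of 0.495 at E13.5 and 0.373 at E18.5. Of the libraries, 33.3% were Dio3-/- at E13.5 and 62.5% at E18.5, and the tables were normalized separately. Age, genotype mix and sequencing batch therefore cannot be told apart in any ratio below.

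Most of the 44 genes were measured, and most lay far below the typical gene. With a limit of 10 on the mean normalized count, 36 were measured at E13.5 and 41 at E18.5. Zbp1, Ifit3b and Oas1a stayed below it at both ages, and Ifit1, Ifit3, Gbp5, Psmb8 and Psmb9 at E13.5 alone. To compare genes with each other, the mean was divided by the exon length in kilobases (kb). The median of the 44 genes, those under the limit included, was 10.3 normalized counts per kb at E13.5 and 19.0 at E18.5. The median of all genes with a mean of at least 10 was 98.8 and 85.9, so the sets were filtered differently. Dividing by the longest transcript alone raised the E13.5 median of the 44 genes to 15.5. On the per-length scale 4 of the 44 genes exceeded the median of all genes at E13.5 and 6 did so at E18.5.

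**Figure D2:**
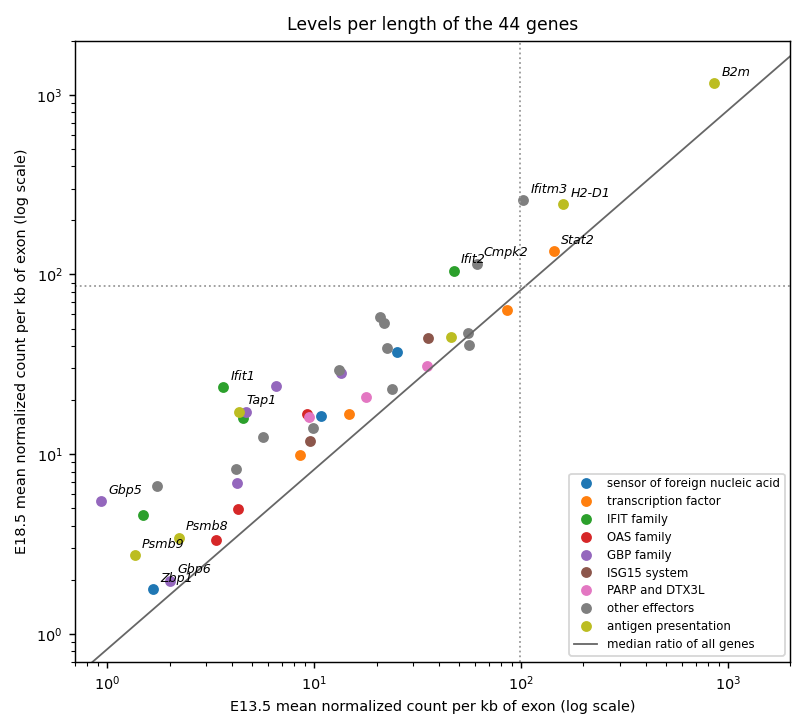
Level per length of the 44 genes, in mean normalized counts per kb of exon, at E13.5 (horizontal) and E18.5 (vertical), both axes logarithmic, with 1 point per gene in the colour of its role. Dotted lines mark the median of all genes, 98.8 and 85.9, and the diagonal is the median ratio of all genes. B2m stands alone at the top and the other genes lie mostly below both dotted lines and above the diagonal.

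B2m, the invariant light chain of every MHC class I molecule, had the highest level per length at both ages, with 858 normalized counts per kb at E13.5 and 1167 at E18.5. These levels were above those of 92.7% and 96.5% of measured genes. H2-D1, a classical class I heavy chain, followed at E13.5 with 159 per kb (percentile 60.1). Stat2, a part with IRF9 of the complex that binds the ISRE, had 144 per kb (percentile 57.9). Ifitm3, a membrane protein that blocks the entry of viruses, had 102 per kb (percentile 50.6), and Irf9 had 85.3 (percentile 47.0). At E18.5 the order was B2m, Ifitm3 with 258 per kb (percentile 75.5), H2-D1 with 247 (percentile 74.4), Stat2 with 135 (percentile 60.0) and Cmpk2 with 115 (percentile 56.3). With no spread between brains, neighbours in this order cannot be separated.

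For the ages, the ratio of the E18.5 mean to the E13.5 mean was divided by 0.822, its median over the 18779 genes whose mean of both ages was at least 10 (a shift of -0.28 on the log2 scale). Ratios below are relative to that median, and their 95% intervals cover counting error only, not the spread between brains. Of the 44 genes, 39 entered the comparison, with a median ratio of 1.99. The count more than 2-fold higher at E18.5 was 19 of 39 genes (48.7%), against 13.6% of all genes compared. None was more than 2-fold lower, against 6.45% of all genes. Ratios were above 1 for 37 of 39 genes relative to the median and for 30 of 39 as deposited. The 7 that changed side were Stat2, Oas2, Gbp6, Dtx3l, Bst2, Ifi35 and H2-K1. For all genes compared, the scaling sets the median ratio to 1, so as many lie above 1 as below it by construction. As deposited their median was 0.822, so most of them lay below 1. Ifit1, Ifit3 and Gbp5 passed the limit only through their E18.5 means. With a mean of at least 10 required at each age, 16 of 36 genes were more than 2-fold higher, against 12.1% of all genes, and with no limit 21 of 44, against 17.9%.

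**Figure D3:**
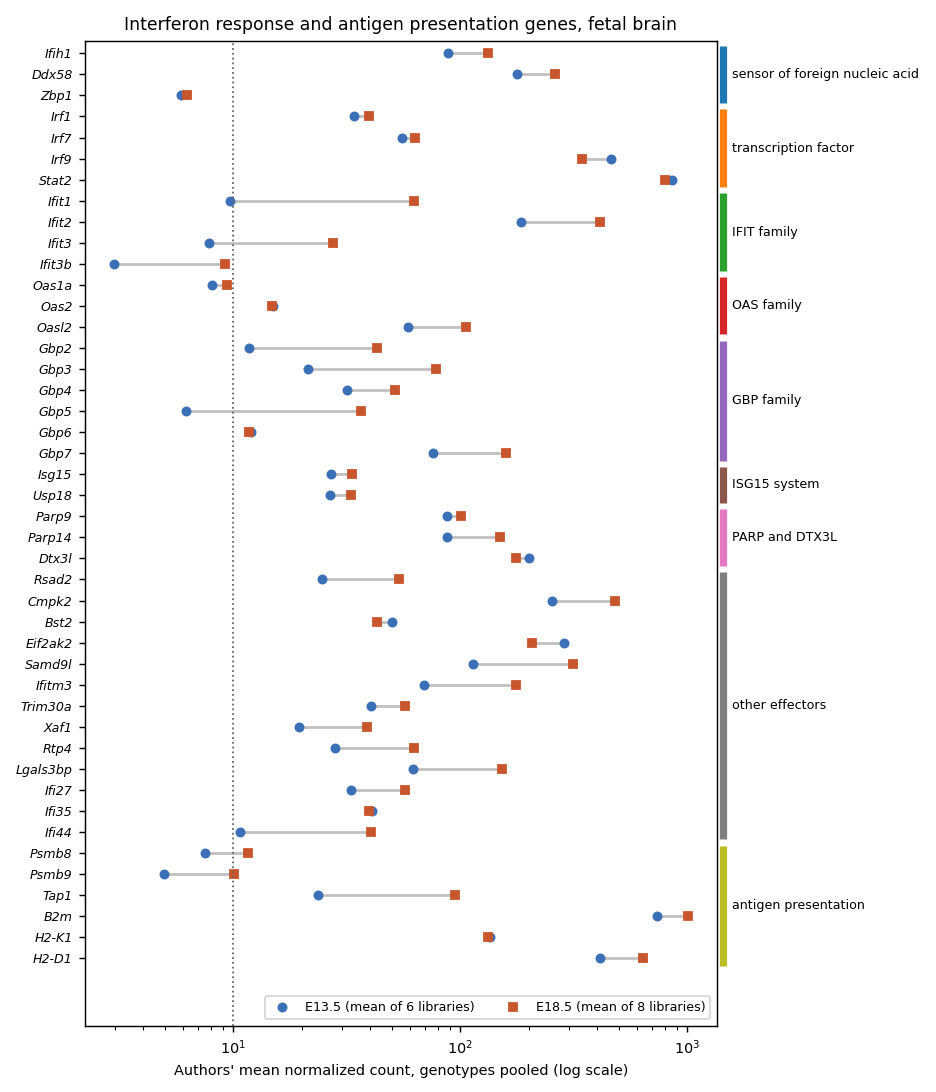
Mean normalized count of each of the 44 genes at E13.5 (blue circles, mean of 6 libraries) and E18.5 (orange squares, mean of 8 libraries) on a logarithmic axis, genotypes pooled, with genes ordered by role. The dotted line is the limit of 10, which 36 genes passed at E13.5 and 41 at E18.5. The widest gaps are those of Ifit1 and Gbp5.

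Of the sensors, Ifih1 encodes MDA5 and Ddx58 encodes RIG-I, receptors for viral RNA in the cytoplasm. Ifih1 had a mean of 88.3 at E13.5 and 133 at E18.5, a ratio of 1.83 (1.64 to 2.03). The mean of Ddx58 was 177 at E13.5 and 260.3 at E18.5, a ratio of 1.79 (1.66 to 1.93). Both ratios were nearly equal and short of 2-fold. Zbp1, a sensor of Z-form nucleic acids that can start necroptosis, was not measured, with means of 5.89 and 6.23.

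The transcription factors had the lowest median ratio of the roles, 1.26, and a range from 0.905 to 1.41. Irf9, the DNA-binding partner of STAT2, had means of 460 and 342 and the lowest ratio of the group, 0.905 (0.858 to 0.954). For Stat2 the means were 853 and 797, which gave 1.14 (1.10 to 1.18) relative to the median and 0.934 as deposited. Irf7, the factor that amplifies interferon alpha production, had means of 55.4 and 63.1. Irf1, the factor that follows interferon gamma, had means of 34.0 and 39.4. The ratios of this pair were 1.39 and 1.41.

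The 4 IFIT genes, whose proteins bind foreign RNA and stop its translation, lie within 99.3 kb of chromosome 19 (34550694 to 34650009, GRCm38). Ifit1, Ifit2 and Ifit3 were compared, and each was more than 2-fold higher at E18.5, against 13.6% of all genes compared. Ifit1 and Ifit3 entered only through their E18.5 means, so that Ifit2 alone remains where a mean of 10 is required at each age. Ifit1 had a mean of 9.67 at E13.5, which is about 59 reads over the 6 libraries, and 62.6 at E18.5, about 504 reads over 8. Its ratio of 7.88 (5.96 to 10.4) was the largest of the 39. Per length Ifit1 stood at 3.64 and 23.6 normalized counts per kb (percentile 27.5 at E18.5). The mean of Ifit2 was 185 at E13.5 and 413 at E18.5, with a ratio of 2.71 (2.54 to 2.91). Ifit3 had means of 7.85 and 27.6, a ratio of 4.28 (3.09 to 5.91). Its copy Ifit3b had means of 2.98 and 9.21 and was not measured. Ifit3 shares 41.1% of its 75-base words with Ifit3b, so reads of this pair are uncertain.

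Among the OAS genes, whose enzymes make the 2′-5′ oligoadenylates that switch on RNase L, only Oasl2 was more than 2-fold higher at E18.5, relative to the median but not as deposited. Oasl2, an OAS-like protein, had means of 58.8 and 106, a ratio of 2.2 (1.94 to 2.5). Oas2 had means of 14.98 and 14.75 (1.2, 0.904 to 1.59). Oas1a had means of 8.04 and 9.35, was not measured, and shares 47.6% of its 75-base words with Oas1g.

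GBP proteins are large GTPases that coat and break the vacuoles of bacteria and parasites. Of their 6 genes, 4 were more than 2-fold higher at E18.5, against 13.6% of all genes compared. Of the 4, Gbp5 entered only through its E18.5 mean. Gbp2, Gbp3, Gbp5 and Gbp7 lie within 144 kb of chromosome 3 (142493978 to 142638008), and these were the 4. Gbp5 had a mean of 6.17 at E13.5 and 36.3 at E18.5, about 37 and 293 reads. Its ratio was 7.17 (5.14 to 10.5), at 0.930 and 5.48 normalized counts per kb (percentile 5.52 at E18.5). The mean of Gbp2 was 11.8 at E13.5 and 42.9 at E18.5, a ratio of 4.45 (3.44 to 5.83), at 4.67 and 17.0 per kb. Gbp3 had means of 21.3 and 77.9 and a ratio of 4.44 (3.68 to 5.42). Those of Gbp7 were 75.7 and 159, with a ratio of 2.55 (2.30 to 2.85), and a transcript of another gene overlaps 11.4% of its exon bases. The 2 genes on chromosome 5 were lower in ratio. Gbp4 went from 31.7 to 51.8 (1.99, 1.67 to 2.37). Gbp6, which shares 67.3% of its 75-base words with other genes, had means of 11.97 and 11.76 (1.2, 0.880 to 1.66).

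ISG15 is a ubiquitin-like protein and USP18 the protease that removes it from other proteins and also dampens the type I receptor. This pair had almost equal values, with means of 26.9 and 33.3 for Isg15 and of 26.6 and 33.0 for Usp18. Both ratios were 1.51 (1.23 to 1.84). Per length Isg15 was the higher, with 35.5 and 44.1 normalized counts per kb against 9.53 and 11.8 for Usp18.

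In the PARP and DTX3L group, PARP9 and the ubiquitin ligase DTX3L work as a complex, and their genes start 681 bases apart on opposite strands of chromosome 16. Parp9 had means of 87.1 and 101, a ratio of 1.41 (1.26 to 1.58). Dtx3l had means of 200.2 and 176, a ratio of 1.07 (0.992 to 1.16) relative to the median and 0.880 as deposited. Parp9 shares 9.40% of its exon bases with Dtx3l, so that counting without strand cannot separate the reads there. Parp14, a mono-ADP-ribosyltransferase of the same region, had means of 87.4 and 149 and a ratio of 2.08 (1.88 to 2.31), or 1.71 as deposited.

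Of the 13 other effectors, 9 were more than 2-fold higher at E18.5, against 13.6% of all genes compared, and the median ratio of the 13 was 2.41. Ifi44 had the largest ratio of them, with means of 10.7 and 40.5 and a ratio of 4.63 (3.51 to 6.09), at 1.74 and 6.61 normalized counts per kb. Samd9l, a translational inhibitor of viruses, had means of 113 and 314 (3.37, 3.1 to 3.68). Ifitm3 had means of 69.3 and 175 (3.08, 2.75 to 3.44). Those of Lgals3bp, a secreted galectin ligand, were 61.9 and 153 (3.00, 2.67 to 3.38). Rtp4, a chaperone of receptors, had means of 28.1 and 62.7 (2.71, 2.28 to 3.26), with 13.9% of its exon bases under another gene.

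Rsad2, which encodes viperin, and Cmpk2, the kinase that supplies its nucleotide, start 12752 bases apart on opposite strands of chromosome 12 and had close ratios. Rsad2 had means of 24.5 and 53.7 (2.67, 2.2 to 3.23). Those of Cmpk2 were 254 and 478 (2.29, 2.16 to 2.44), so that per length Cmpk2 stood at 60.9 and 115 normalized counts per kb against 5.66 and 12.4 for Rsad2. Xaf1, a promoter of apoptosis, had means of 19.5 and 38.7 (2.41, 1.95 to 3.02). Ifi27, a small membrane protein, had means of 33.0 and 57.1 (2.11, 1.78 to 2.49). The ratios of Cmpk2, Xaf1 and Ifi27 were under 2 as deposited, 1.88, 1.98 and 1.73.

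The remaining 4 effectors did not pass 2-fold. Trim30a, a ubiquitin ligase that restrains innate signalling, had means of 40.5 and 57.3 (1.72, 1.47 to 2.02). Ifi35 had means of 41.0 and 39.6 (1.18, 0.995 to 1.40), and 16.8% of its exon bases lie under another gene. Bst2, the tether that holds budding virions to the cell, had means of 50.1 and 42.8, a ratio of 1.04 (0.888 to 1.22) and a level of 55.5 and 47.4 per kb (percentiles 39.3 and 39). Eif2ak2, which encodes the RNA-activated kinase PKR, had means of 287 and 206 and the smallest ratio of the 39, 0.874 (0.817 to 0.936), at 56.1 and 40.3 per kb (percentiles 39.5 and 36.0).

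**Figure D4:**
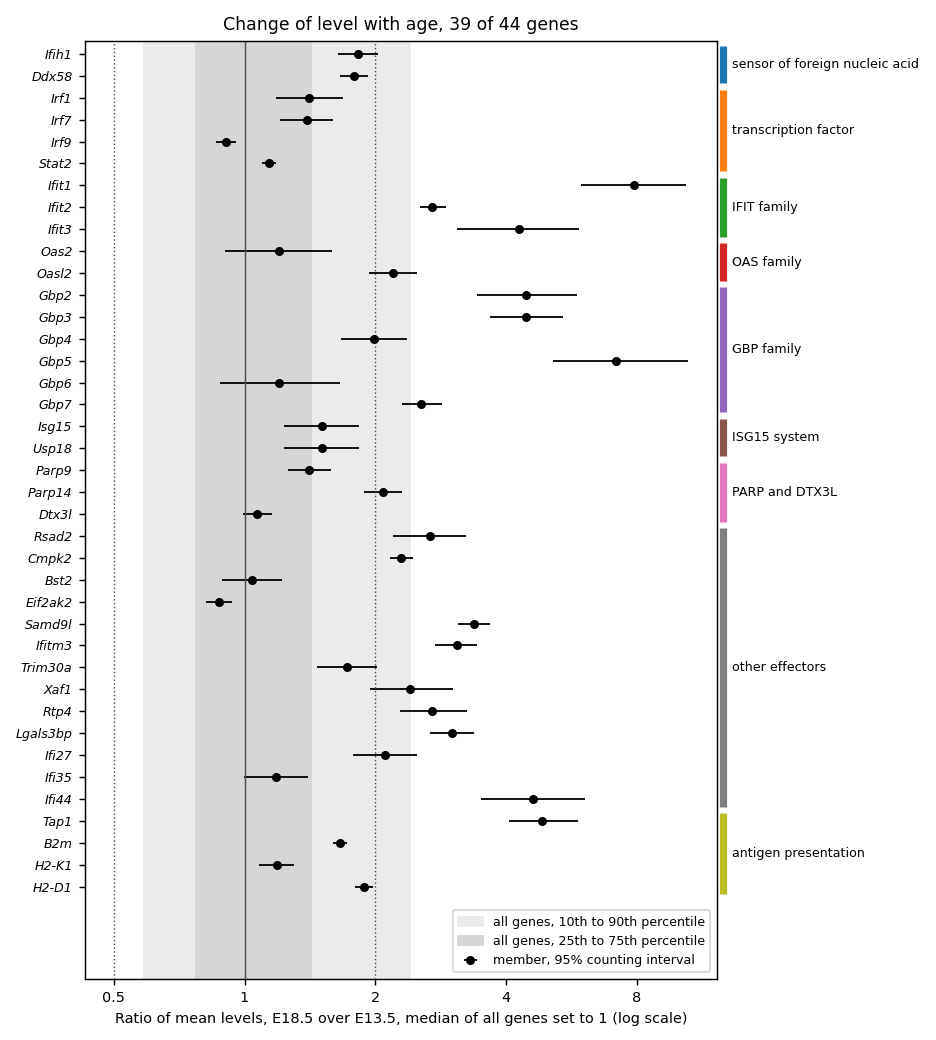
Ratio of the E18.5 mean to the E13.5 mean for the 39 genes compared, with the median of all genes set to 1, on a logarithmic axis. Points are genes, bars are 95% counting intervals that hold no spread between brains, grey bands are the middle 80% and 50% of all genes, and dotted lines mark 2-fold. Ifit1 and Gbp5 lie farthest right, at 7.88 and 7.17, and the 4 transcription factors lie between 0.905 and 1.41.

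The 6 genes of antigen presentation comprise the peptide-cutting, transporting and presenting parts of the class I path. Tap1, a chain of the transporter that carries peptides into the endoplasmic reticulum, had means of 23.7 and 94.3. Its ratio was 4.85 (4.07 to 5.86), at 4.33 and 17.2 normalized counts per kb (percentile 22.0 at E18.5). Psmb9 starts 211 bases from Tap1 on the other strand of chromosome 17, and 212 exon bases of the pair overlap. Psmb8 and Psmb9, the inducible catalytic subunits of the immunoproteasome, had means of 7.50 and 11.6 and of 4.97 and 10.04 and were not compared. Of the presenting chains, H2-D1 had means of 411 and 636 (1.88, 1.80 to 1.98) and B2m of 738 and 1004 (1.66, 1.60 to 1.72). H2-K1, the other classical heavy chain of this strain, had means of 135 and 132, a ratio of 1.19 (1.08 to 1.3) relative to the median and 0.976 as deposited.

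Against the constitutive subunits that they replace, the immunoproteasome genes Psmb8 and Psmb9 were far lower at both ages, and Psmb10 less so. Per length, Psmb8 reached 0.311% of Psmb5 at E13.5 and 0.865% at E18.5, with 14.7% of the exon bases of Psmb8 under another gene. Psmb9 reached 0.0933% of Psmb6 at E13.5 and 0.287% at E18.5. At E13.5 and E18.5 these shares rest on about 45 and 93 reads of Psmb8 and 30 and 81 of Psmb9. Psmb10 reached 14.8% of Psmb7 at E13.5 and 29.6% at E18.5. With the longest transcript as the length, Psmb8 reached 0.552% and 1.53% of Psmb5, and Psmb9 0.0611% and 0.188% of Psmb6. Psmb10 then reached 16.0% and 32.1% of Psmb7. The ratios of Psmb5, Psmb6 and Psmb7 between the ages were 0.677, 0.8 and 0.904, while that of Psmb10 was 1.81.

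Among other genes of the class I path, 2 of 15 were more than 2-fold higher, a share near the 13.6% of all genes, and none was lower. They were Tap2, the partner of Tap1, with means of 8.61 and 23.7 (3.35), and H2-M3, a class Ib heavy chain, with 8.99 and 14.97 (2.03). Both passed the limit only through their E18.5 means, and H2-M3 was under 2-fold as deposited. Nlrc5, the activator of class I genes, had means of 13.8 and 14.99. Of the 7 class II genes, 4 were compared and none differed by 2-fold. Cd74, the invariant chain, had means of 13.3 and 19.5.

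Interferon transcripts were close to or at zero. Of the 12 ligand genes none reached a mean of 10, and 7 (Ifnb1, Ifna1, Ifna2, Ifna4, Ifna5, Ifnl2 and Ifnl3) were listed at 0 at both ages. For the reads that were counted, this allows a mean of up to 0.495 at E13.5 and 0.373 at E18.5. Sequence that the ligand genes share with other genes was not examined. Ifnk, an interferon of keratinocytes, had means of 7.22 and 2.32. Ifna13 had 0.556 and 0.731, Ifng 0.163 and 0.232, Ifnz 0.499 and 0.121, and Ifne 0.171 and 0. These ligand means rest on 1 to 44 reads over all libraries of an age wherever they are above 0.

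All 6 receptor genes were measured. Ifnar1 and Ifnar2, the subunits for type I interferons, had means of 3338 and 2392 (0.872) and of 369 and 337 (1.11). Ifngr1, which binds interferon gamma, had means of 338 and 318 (1.14). Its signalling partner Ifngr2 had means of 1092 and 2316 and was the only receptor gene more than 2-fold higher at E18.5 (2.58). For type III interferons, Ifnlr1 had means of 24.0 and 22.2 (1.13) and Il10rb, shared with interleukin receptors, 88.8 and 127 (1.74).

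Relative to the median, Jak1, Jak2, Tyk2 and Stat3 of JAK-STAT signalling, the 7 negative regulators and the 16 adaptors and other sensors stayed within 2-fold. Their median ratios were 1.13, 0.903 and 1.14. Over all genes compared, 13.6% were more than 2-fold higher and 6.45% more than 2-fold lower. Trim28, a negative regulator with means of 14200 and 6380, had a ratio of 0.547 and passed 2-fold only as deposited (0.449). Socs1 and Socs3, which switch off the receptors, had ratios of 1.3 and 0.777. The nearest to 2-fold was Tlr7, a receptor for RNA in endosomes, at 1.98.

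Read beside the promoters, 18 genes with an ISRE core were compared, of which 10 were more than 2-fold higher at E18.5, with ratios from 0.874 to 7.88. Of 13 genes with a window and no such core 6 were, with ratios from 0.905 to 4.85. Ifit1, Ifit3 and Gbp5, which passed the limit only through their E18.5 means, are all among the 10 and none is among the 13. The counts with and without the core are therefore not on a like footing. Over all genes compared that have a window, 16.1% of the 1079 with the core and 13% of the 11566 without it were more than 2-fold higher. For the GAS core, 4 of 8 genes with it and 12 of 23 without it were more than 2-fold higher, with median ratios of 1.9 and 2.2. Of all genes compared that have a window, 14.9% with it and 13.2% without it were. The median ratios with and without the ISRE core were 2.61 and 1.88, the former with Ifit1, Ifit3 and Gbp5 counted in. The ranges of ratios with and without either core overlapped.

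Whole brain holds many cell types, and fewer cells of a type and less RNA per cell cannot be told apart in these means. Of 11 microglial markers 10 were compared, and 9 had a ratio above 1, with a median of 1.61, a range from 0.613 for Tmem119 to 2.15 for C1qc, and a summed mean of 2215 at E13.5 and 2759 at E18.5. Of 6 markers of monocytes and border macrophages 4 were compared, with a median ratio of 1.57 and a summed mean of 869 and 1085. Cd163 had the largest ratio among them, 15.2, and a mean of 5.6 at E13.5. The 6 lymphocyte markers all stayed under a mean of 10, with summed means of 6.30 and 8.92, and Cd3d was at 0 at E13.5.

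Of the 9 endothelial markers 3 were more than 2-fold higher, against 13.6% of all genes compared, and 1 of these, Flt1, was under 2-fold as deposited (1.87). The 9 markers had a median ratio of 1.2, a range from 0.806 to 25.1 and a summed mean of 8094 and 9362. The 4 pericyte markers had a median ratio of 1.72 (summed means of 4136 and 6256), the 6 leptomeningeal markers 1.03 (14280 and 8201) and the 4 markers of choroid plexus 2.47 (4708 and 13460). Slc1a3, Aldh1l1 and Aqp4, the astrocyte markers measured at both ages, had ratios of 2.37, 2.79 and 27.7, and Gfap had means of 4.71 and 501 (summed means of the 4 markers, 4534 and 11470). Cd163, Ly6c1, whose ratio of 25.1 is the endothelial maximum, and Gfap passed the limit only through their E18.5 means. Progenitor markers had a median ratio of 0.376 (42670 and 12070) and erythroid markers of 0.383 (5838 and 1794), while neuronal markers, high at both ages, had 1.38 (171600 and 184200). The part of these cell types in the ratios of the interferon response genes was not tested.

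**Figure D5:**
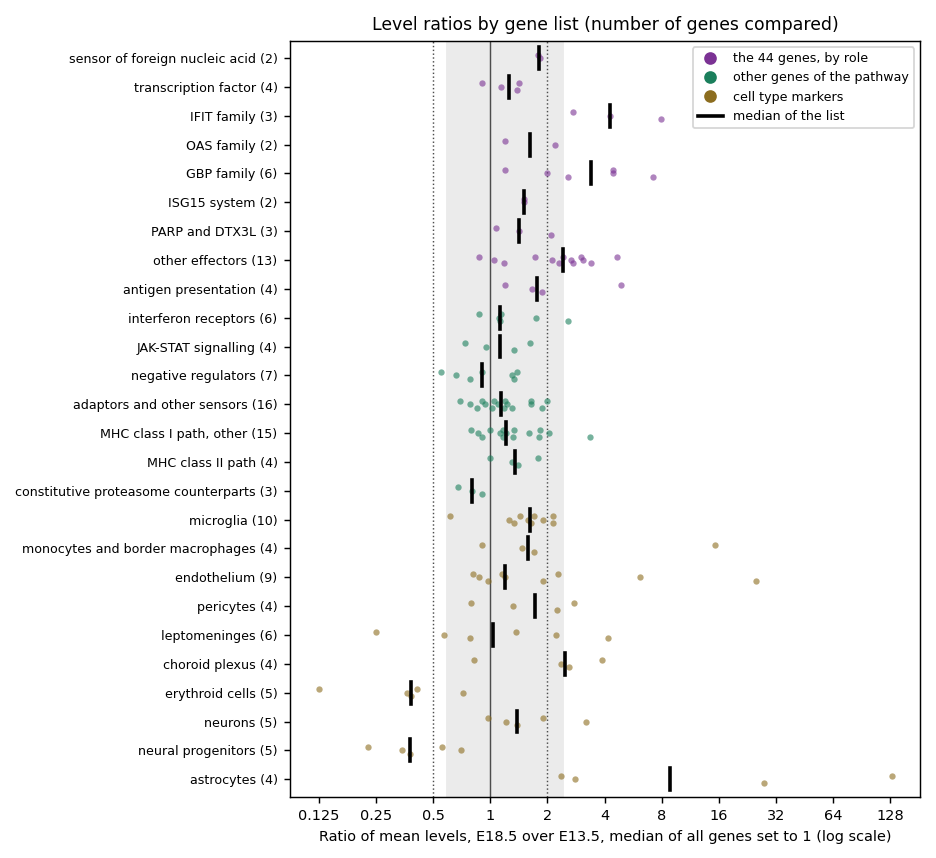
Ratio of the E18.5 mean to the E13.5 mean for the genes of each list, on a logarithmic axis with the median of all genes set to 1. Points are genes, black bars are list medians, the grey band holds the middle 80% of all genes, dotted lines mark 2-fold, and the number of genes compared follows each name. The other effector genes have a median of 2.41 and the receptors of 1.13, and the highest points of the IFIT genes, GBP genes, macrophage, endothelial and astrocyte markers are genes with a mean under 10 at E13.5.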

How the data were processed

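RNA was sequenced in 14 male fetal brains (6 at E13.5, 8 at E18.5; groups from the labels). Per the paper's methods and the labels, the authors trimmed single-end reads with cutadapt 3.1, aligned them to GRCm38 with STAR 2.5.3a, counted genes with HTSeq without strand, removed differences between 2 sequencing batches from the counts by ComBat-seq, and normalized each age by itself in DESeq2 1.30.1. The deposited signal used here is the authors' mean normalized count per gene over all libraries of an age. The tables also hold fold changes, their errors, test statistics and p-values of the authors' comparison of Dio3-/- with Dio3+/+ brains. These were not used. Columns of values per library that went unused numbered 0.

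The values per read were taken from the commonest low values. They gave approximate read totals and Clopper-Pearson 95% intervals, which cover counting error only, on counts already adjusted for batch. Ratios were divided by the median over genes with a mean of both ages of at least 10. Of rows sharing a symbol the one with the higher mean was kept. Exon lengths and positions came from GENCODE vM21, 1 release older than the authors', which held 41808 of 41844 gene IDs, and promoters from RefSeq (GRCm38.p6). Ratios and read values were checked on simulated data. Python 3, pandas and scipy were used.

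The 44 genes and all lists were chosen with earlier results of these data known. Named in the text are all 44 genes, in full the 5 highest per length and the 5 largest and smallest ratios, and of other pathway genes the ligands, the receptors and those past 2-fold. Nlrc5, Cd74, Jak1, Jak2, Tyk2, Stat3, Socs1, Socs3, Trim28, Tlr7 and the proteasome subunits were added after their values were seen. Alternatives were the scale, the limit on low means, summed rows, transcript length and the number of matches. Leaving out members with shared sequence and a scale from protein-coding genes were added after seeing the data. 1 gene of the lists is not reported here.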

Additional observations from a re-analysis of the deposited data

How the results depend on the processing

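The count of genes measured, the count more than 2-fold higher or lower at E18.5 and the median ratio stayed within 1.5-fold of the reported value under each alternative for scale, limit and summed rows. The count more than 2-fold higher ranged from 14 of 39 (means as deposited), against 9.87% of all genes, to 21 of 44 (no limit), against 17.9%. The reported count was 19 of 39, against 13.6%. None was more than 2-fold lower in any of them, against 5.61% to 11.1% of all genes. Without the 8 genes that share over 10% of their sequence the count was 16 of 34, against 13.6% of all genes, and the median ratio 1.94. With the scale set by protein-coding genes they were 19 of 39, against 13.4%, and 1.97. The median ratio was 1.64 as deposited. With lengths from the longest transcript, the median level per length at E13.5 was 15.5 instead of 10.3, and the share of Psmb8 in Psmb5 at E13.5 was 0.552% instead of 0.311% (a comparison chosen after seeing the data). Asking for 2 or more matches left 10 genes with an ISRE core and 2 with a GAS core, by construction. No paired analysis was possible because the tables hold no value of a single library, and for the same reason no library could be left out in turn. Ratios therefore have no replicate check, and genes with under 100 reads at E13.5 have the widest counting intervals.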
